A study of Mus musculus with 2 samples.

Results

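The genes described here are 10 components and regulators of the signalling route of the B cell antigen receptor, followed in plasmacytoid dendritic cells (pDCs), which are known for making large amounts of type I interferon. They were chosen by name: the receptors Fcmr, Fcrla, Cd22 and Cd72, the kinases Syk, Btk, Blk and Lyn, and the adaptors Bank1 and Blnk. A gene was read from the probe set that carries its symbol alone, and 9 of the 10 were measured in this way, out of 19938 named genes in all, each of the 9 by 1 probe set. Lyn was not analysed here. The names were picked with the difference between the arrays known, so the levels and differences of the 9 genes are descriptions and carry no test.

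The cells came from mice whose blood system had been rebuilt with fetal liver cells, either Runx2-/- (without the transcription factor gene Runx2) or wild type, and bone marrow was taken 2 months after reconstitution. CD11b-negative cells carrying BST2 and B220 were sorted, and 250 ng of total RNA per sample went onto an Affymetrix Mouse Gene 1.0 ST array, a short-oligonucleotide array with probes along each transcript. There was 1 array of Runx2-/- pDCs and 1 of wild-type pDCs, so no difference has a replicate check or an error. The labels give neither the number of mice behind a sample nor the remaining host cells, and Runx2 itself was not analysed here because 0 probe sets carry its symbol alone.

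In a B cell, Src-family kinases phosphorylate the tyrosine motifs (ITAMs) of the receptor chains CD79a and CD79b, Syk docks there, and the adaptor BLNK brings Btk and phospholipase C gamma 2 together to release calcium. Receptors with inhibitory tyrosine motifs, such as CD22 and CD72, recruit the phosphatase SHP-1 and damp the signal. pDCs use much of the same machinery behind other receptors: mouse Siglec-H signals through the ITAM adaptor DAP12, and in human pDCs engagement of the lectin BDCA-2 or of comparable ITAM-linked receptors lowers interferon production.

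The 9 genes were split in direction. Bank1, Fcmr and Cd22 were higher, and Blk and Cd72 lower, by 2-fold or more in Runx2-/- pDCs than in wild-type pDCs, and Fcrla, Blnk, Btk and Syk lay within 2-fold. Of named genes past a brightness filter (at or above the median of named genes, 186 intensity units on the Runx2-/- array or 196.0 on the wild-type array), 0.793% were higher and 1.17% lower by 2-fold or more, 1.96% in either direction. Over all named genes these shares were 0.436% and 0.647%. Because the names were chosen from this contrast, nothing is read from 3 higher and 2 lower among 9. All 9 genes passed the filter, and Bank1 on the wild-type array was the only value of the 18 below its array's filter level. The median log2 difference, Runx2-/- minus wild type, was 0.52 over the 9 genes, beside -0.033 over all named genes.

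**Figure D1:**
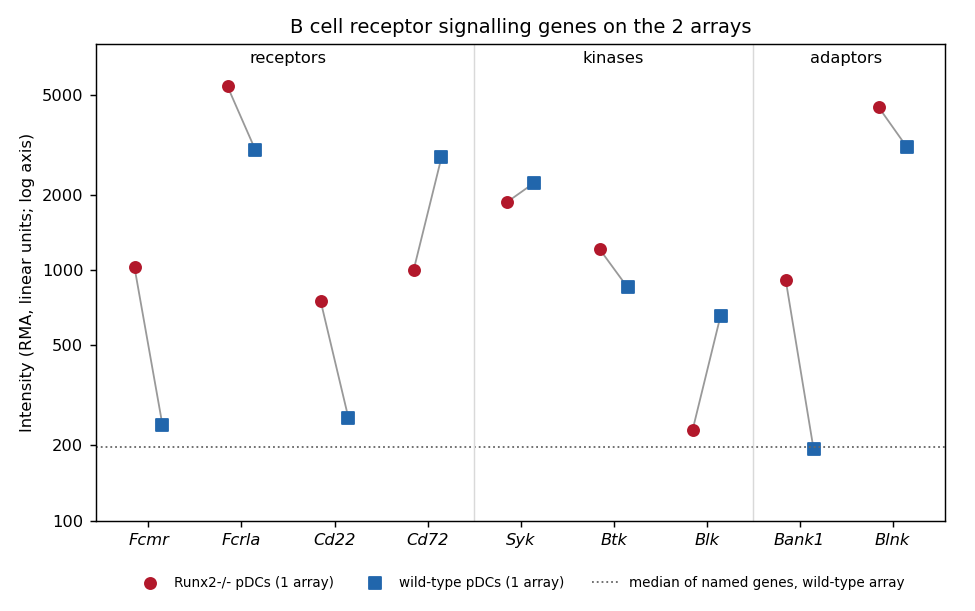
Intensity (RMA, linear units on a log axis) of the 9 measured genes, grouped as receptors, kinases and adaptors, with the Runx2-/- array as circles left of the wild-type array as squares. Each point is 1 array, the dotted line is the wild-type filter level of 196.0, and the lines of Cd72, Syk and Blk run upward to wild type while the other 6 run downward.

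The promoter windows of the 3 genes that were at least 2-fold higher and of Cd72 are shown because Runx2 is a DNA-binding factor and these 4 are among the 5 genes that were 2-fold apart. The windows run from 250 bases before to 50 bases after the annotated start and come from RefSeq on GRCm38.p6; the build behind the array annotation is not given in the sources used here. Capitals mark GAGGAA (the core bound by PU.1 and Spi-B, read TTCCTC on the other strand) and CAGCTG or CAGGTG (bound by E proteins such as Tcf4, CAGGTG being read CACCTG on the other strand).
Fcmr, chr1:130865527-130865826, plus strand: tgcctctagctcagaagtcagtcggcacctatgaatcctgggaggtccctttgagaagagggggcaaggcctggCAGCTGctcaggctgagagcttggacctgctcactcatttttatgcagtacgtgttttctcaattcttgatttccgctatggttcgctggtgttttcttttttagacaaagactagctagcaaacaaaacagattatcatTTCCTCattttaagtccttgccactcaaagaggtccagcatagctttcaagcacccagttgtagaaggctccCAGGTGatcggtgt
Cd22, chr7:30878979-30879278, minus strand: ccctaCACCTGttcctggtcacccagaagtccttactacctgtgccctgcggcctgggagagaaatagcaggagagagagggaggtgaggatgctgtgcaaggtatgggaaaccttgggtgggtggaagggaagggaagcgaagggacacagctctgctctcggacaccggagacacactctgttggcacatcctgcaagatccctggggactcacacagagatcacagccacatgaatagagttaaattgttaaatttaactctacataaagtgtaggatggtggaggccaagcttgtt
Bank1, chr3:136326017-136326316, minus strand: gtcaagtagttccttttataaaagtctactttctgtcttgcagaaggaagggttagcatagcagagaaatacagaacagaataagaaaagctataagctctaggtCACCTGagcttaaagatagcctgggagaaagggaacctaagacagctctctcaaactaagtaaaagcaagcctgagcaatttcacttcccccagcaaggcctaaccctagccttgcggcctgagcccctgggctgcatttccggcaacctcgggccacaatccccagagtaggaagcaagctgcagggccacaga
Cd72, chr4:43454577-43454876, minus strand: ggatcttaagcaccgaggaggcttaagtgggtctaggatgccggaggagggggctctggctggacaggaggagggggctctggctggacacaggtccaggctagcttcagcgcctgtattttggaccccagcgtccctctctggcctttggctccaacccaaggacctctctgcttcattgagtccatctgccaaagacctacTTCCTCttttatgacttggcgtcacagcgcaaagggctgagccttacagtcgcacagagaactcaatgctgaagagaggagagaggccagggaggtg
Of the 9 measured genes, 8 had a window, Syk had 2, and Blk was without an entry. The RUNX letters TGTGGT were in 0 of these 9 windows, on either strand, and in 16.8% of all 32851 windows. The variant TGCGGT was in 1 of the 9, the upstream Syk window (positions -107 to -102, where the first base of the gene is +1), and in 6.45% of all. GAGGAA was in the windows of 5 genes, Fcmr, Fcrla, Cd72, Btk and the downstream start of Syk, and in 28.3% of all windows. It lay at positions -36 to -31 in Fcmr, -37 to -32 in Fcrla and -47 to -42 in Cd72, on the opposite strand in each. In Btk it lay at positions 10 to 15, also on the opposite strand, and in Syk at -9 to -4. Whether these letters had a part in any difference was not tested. CAGGTG was in 7 of the 9 windows, of 6 genes, and in 20.2% of all, and CAGCTG was in 2 and in 16.3%. The motifs searched do not overlap in these windows. A match is only a match of letters, and no binding was measured.

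Among the receptors, Fcmr showed the widest difference. Fcmr encodes the Fc receptor for IgM, and its intensity was 1025 in Runx2-/- pDCs and 241 in wild-type pDCs, 4.25-fold higher with a log2 difference of 2.09. It ranked at position 9 from the top among the 10337 named genes past the filter. Its relatives in the IgM and IgA receptor group did not go with it: Fcamr, a receptor for IgA and IgM, differed by -0.075 and Pigr, which carries polymeric immunoglobulin across epithelia, by -0.24. Both relatives were below the filter on both arrays, so Fcmr alone of this group was past it. The wild-type value of Fcmr was itself not far above the filter level of 196.0, so its fold rests on a dim value.

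Fcrla encodes an Fc receptor-like protein that stays inside the cell and binds immunoglobulin there. It measured 5413 in Runx2-/- and 3014 in wild-type pDCs, 1.80-fold higher (log2 difference 0.84), which is short of 2-fold. Fcrl1, a B cell surface relative, measured 183 in Runx2-/- and 111 in wild-type pDCs, a difference of 0.73 with both values below the filter. The other measured relatives, Fcrlb, Fcrl5 and Fcrl6, were also below the filter and differed by -0.12, -0.052 and 0.033. Of 7 measured genes in a list of other Fc receptors, 4 were above 0 and 3 below, with a median of 0.0019. The 2 past the filter were the inhibitory IgG receptor gene Fcgr2b and the shared ITAM chain gene Fcer1g. Fcgr2b differed by 0.52, with 1794 in Runx2-/- and 1251 in wild-type pDCs, and Fcer1g by -0.088. Fcer2a, below the filter on both arrays, differed by -0.46.

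The inhibitory receptors Cd22 and Cd72 lay on opposite sides of zero. Cd22, a sialic acid-binding lectin of the Siglec family, measured 755 in Runx2-/- and 257 in wild-type pDCs, 2.94-fold higher (log2 difference 1.56). Cd72, a C-type lectin-like receptor, measured 999 in Runx2-/- and 2820 in wild-type pDCs, 2.82-fold lower (log2 difference -1.497). Among the other 7 Siglec genes the differences ran from -0.23 (Siglece) to 0.17 (Siglecg, an inhibitory receptor of B cells), with Siglech, the pDC receptor, at 0.073 and Cd33 at -0.019. Sema4d, which encodes CD100, the ligand of CD72, measured 1790 in Runx2-/- and 2658 in wild-type pDCs, a difference of -0.57. Cd22, which was chosen from this contrast, was the only one of 8 measured Siglec genes 2-fold apart, beside 1.08% of all named genes. Of the 8, 3 were below the filter on both arrays, namely Siglece, Siglec1 and Mag.

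Of 13 inhibitory receptor genes of the wider pathway, 2 were at least 2-fold higher and 1 lower, with a list median of 0.091. Without Cd22 and Cd72, which were chosen from this contrast, 1 of 11 was at least 2-fold higher and 0 were lower, beside 0.436% and 0.647% of all named genes. Among named genes past the filter, as 10 of the 11 were, these shares were 0.793% and 1.17%. The list itself was drawn up with earlier results of these data known. Besides Cd22 and Cd72 the third was Btla, an inhibitory receptor of lymphocytes, at 1901 in Runx2-/- and 912 in wild-type pDCs (2.09-fold higher). The inhibitory receptor genes Pirb, Lair1 and Ceacam1 differed by 0.0017, -0.0028 and 0.0023. These 3 were picked after their values were seen, as examples of near-equal levels.

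The kinases differed less, apart from Blk. Blk encodes a Src-family kinase of B cells that pDCs also express, and it measured 230 in Runx2-/- and 656 in wild-type pDCs, 2.85-fold lower (log2 difference -1.51). Syk, the kinase that docks on ITAMs, measured 1864 in Runx2-/- and 2235 in wild-type pDCs, 1.20-fold lower (log2 difference -0.26). Btk, the Tec-family kinase that activates phospholipase C gamma 2, measured 1212 in Runx2-/- and 854 in wild-type pDCs, 1.42-fold higher (log2 difference 0.51). Syk had the smallest difference of the 9 genes.

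Each kinase gene can be set beside its relatives. All 5 measured Src-family genes were below 0, as were 56.7% of all named genes: Fyn, a broadly used member, differed by -0.64, the myeloid member Fgr by -0.47, Src by -0.37 and Yes1 by -0.11, the last below the filter on both arrays. Blk, which was chosen from this contrast, was the only one of them at least 2-fold apart, beside 1.08% of all named genes. In the Tec family, Tec measured 963 in Runx2-/- and 545 in wild-type pDCs, a difference of 0.82, so both Tec-family genes past the filter were higher by less than 2-fold. Txk and Bmx were below the filter, at 0.15 and -0.068. Zap70, the T cell relative of Syk, was below the filter and differed by -0.20. Marker genes of neutrophils and their precursors were also lower, with a median difference of -2.52, in cells sorted as CD11b-negative. The part of neutrophil or precursor RNA in the values of the Src-family genes was not tested.

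Of the adaptors, Bank1 had the largest difference of all 9 genes. Bank1, a scaffold with ankyrin repeats that links Src-family kinases to calcium release in B cells, measured 916 in Runx2-/- and 193 in wild-type pDCs, 4.75-fold higher (log2 difference 2.25). It ranked at position 7 from the top of the genes past the filter, and its wild-type level was just under the filter level of that array, so the fold rests on a dim value. Pik3ap1, its structural relative, which encodes the phosphoinositide 3-kinase adaptor BCAP, differed by -0.26 at 4241 in Runx2-/- and 5062 in wild-type pDCs. Blnk measured 4471 in Runx2-/- and 3112 in wild-type pDCs, 1.44-fold higher (log2 difference 0.52). The T cell and myeloid relatives of Blnk differed less, Lcp2 (SLP-76) by -0.0063 and Clnk by -0.30. Over 12 further adaptor genes, 0 were 2-fold apart (1.08% of all named genes). Of these 12, 9 were below 0 (56.7% of all named genes) and the median was -0.093.

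**Figure D2:**
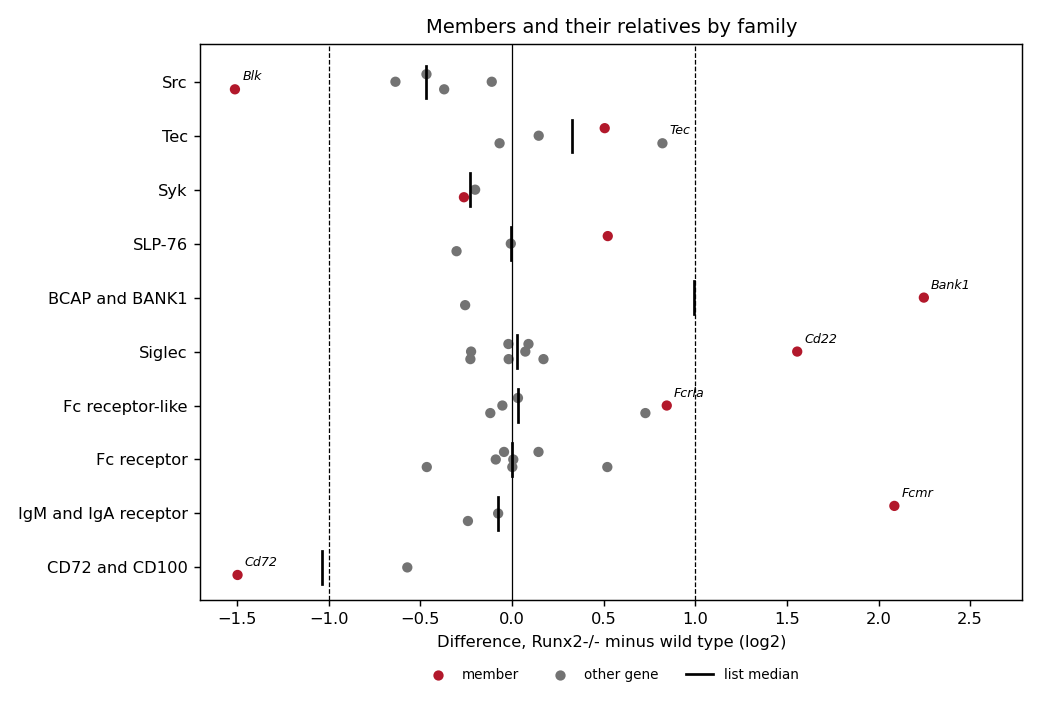
Difference in log2 units, Runx2-/- minus wild type, of the 9 genes (red) and their measured relatives (grey) by family, with dashed lines at 2-fold and a black bar at each group's median; names are given beyond 0.8. The CD72 row pairs the receptor with its ligand gene Sema4d, and none of the 32 relatives reaches a dashed line.

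Taking all families, 0 of 32 measured relatives were 2-fold apart, and 18 of the 32 were below the filter. Their median difference was -0.060. The share of all named genes at least 2-fold apart in either direction was 1.08%, so a count of 0 among 32 is close to that background.

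The scatter of differences on these arrays depends on brightness, and the genes differ in where they fall in it. Of the 1000 named genes nearest in mean level, 0 had a difference as high as that of Fcmr, 2 as high as Bank1, 2 as high as Cd22 and 6 as high as Fcrla. In the lower direction, 3 were as low as Cd72 and 5 as low as Blk. For Btk the count was 27 and for Blnk 31, and for Syk it was 176. The central 95% of those neighbours ran from -0.66 to 0.54 around Syk, from -0.64 to 0.54 around Blnk and from -0.73 to 0.52 around Btk. Each range contains the difference of its own gene. These counts describe the 2 arrays only and, since the genes were chosen from them, carry no test.

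**Figure D3:**
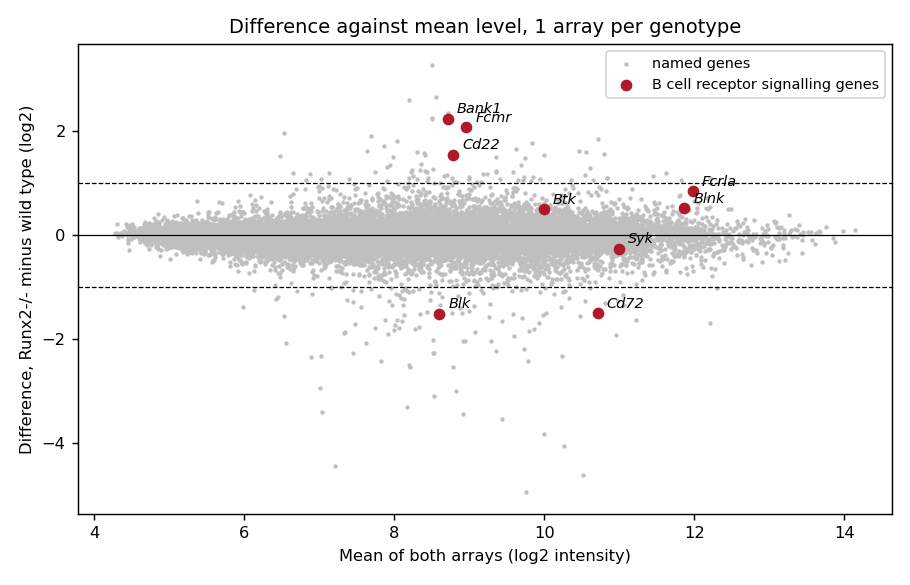
Log2 difference, Runx2-/- minus wild type, against the mean log2 intensity of both arrays for 19938 named genes (grey) and the 9 B cell receptor signalling genes (red), with dashed lines at 2-fold. Bank1, Fcmr and Cd22 lie above the upper line, Blk and Cd72 below the lower one, and Syk, Btk, Blnk and Fcrla between them.

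The rest of the pathway was followed in 74 measured genes from lists of receptor chains, kinases, adaptors, enzymes, inhibitory receptors and phosphatases, leaving out the 9 genes. Of these 74, 3 were at least 2-fold higher and 0 lower, 33 were above 0 and 41 below, and the median was -0.057. Over all named genes 0.436% were higher and 0.647% lower by 2-fold or more, 42.6% were above 0 and 56.7% below, and the median was -0.033. Of the 74, 68 were past the filter, and of named genes past it 0.793% were higher and 1.17% lower by 2-fold or more. The lists were drawn up with earlier results of these data known, so nothing is read from these counts. The 3 genes at least 2-fold higher were Rasgrp3, Cd81 and Btla. Rasgrp3, a Ras activator that acts downstream of phospholipase C gamma 2 in B cells, measured 945 in Runx2-/- and 149 in wild-type pDCs (6.34-fold higher, the wild-type value below the filter). Cd81, a tetraspanin of the B cell surface, measured 990.4 in Runx2-/- and 465 in wild-type pDCs (2.13-fold higher).

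By step of the pathway, the receptor chains came first. The ITAM chain gene Cd79b measured 2397 in Runx2-/- and 2000 in wild-type pDCs (difference 0.26), whereas Cd79a measured 267 in Runx2-/- and 398 in wild-type pDCs (difference -0.58). Among 13 enzymes of the calcium and phosphoinositide 3-kinase steps, 0 were 2-fold apart (1.08% of all named genes) and the median was -0.18. The furthest from 0 were Itpr3, an inositol trisphosphate receptor, at -0.73, the kinase Akt1 at -0.42 and the lipid kinase subunit Pik3cd at -0.25 on the lower side, and Itpr2 at 0.38, Pik3ca at 0.30 and Pdpk1 at 0.083 on the higher side. Among 14 genes of the NF-kappaB, Ras and NFAT arms Rasgrp3 was the only one 2-fold apart, beside 1.08% of all named genes. Its wild-type value was below the filter. The median of this list was -0.014, which became 0.032 over genes past the filter.

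Negative regulators inside the cell were within 2-fold. Of 15 phosphatases, ubiquitin ligases and other negative regulators, 0 were 2-fold apart (1.08% of all named genes). Of the 15, 10 were below 0 (56.7% of all named genes) and the median was -0.093. Inppl1, which encodes the lipid phosphatase SHIP2, was furthest from 0 at -0.60. It was followed by the ubiquitin ligase gene Cblb at -0.36 and by Dok1 at -0.35, Dok1 being below the filter on both arrays. On the higher side Pag1 was at 0.23, Ptpn2 at 0.18 and Sla at 0.12. A few central enzymes were named for their role after their values were seen: Plcg2 differed by 0.041, Prkcb by -0.14, Ptpn6 (SHP-1) by -0.00075 and Inpp5d (SHIP1) by -0.093. So the genes for the phospholipase and for the phosphatase that CD22 and CD72 recruit were at almost the same level on both arrays, while Cd22 and Cd72 were 2-fold apart.

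A list of pDC receptors and adaptor chains, not all of which feed this route, was within 2-fold, 8 of 8, as were 19722 of all 19938 named genes. Siglech measured 12028 in Runx2-/- and 11436 in wild-type pDCs, and Tyrobp, which encodes DAP12, measured 5670 in Runx2-/- and 8422 in wild-type pDCs (difference -0.57). On the higher side Cd300lf differed by 0.27, Hcst, the gene of the adaptor DAP10, by 0.20 and Klra17, which encodes the pDC lectin Ly49Q, by 0.094, and on the lower side Clec12a differed by -0.40 and Cd300c by -0.18. Tyrobp is also used by granulocytes, whose markers were lower on the Runx2-/- array, and by monocytes, whose 6 markers were split 3 above and 3 below 0, and the part of either in its difference was not tested.

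**Figure D4:**
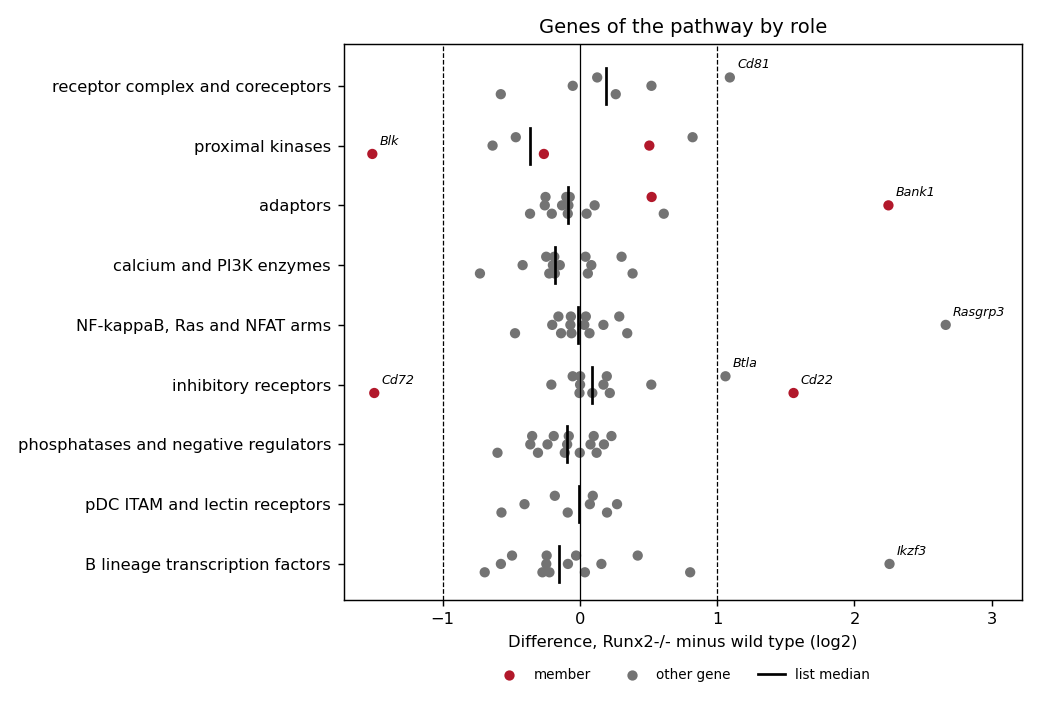
Difference in log2 units, Runx2-/- minus wild type, of pathway genes by role, with dashed lines at 2-fold and a black bar at each list's median. Syk, Btk, Blk, Blnk, Bank1, Cd22 and Cd72 are in red and other genes in grey. Fcmr and Fcrla are in none of these lists and are not drawn. Genes beyond 2-fold are named; in each row most genes sit between the dashed lines.

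Markers of other cell types were read because several of these genes are also B cell or myeloid genes. Of 4 measured defining B cell markers, Ms4a1 (CD20), Pax5 and Ebf1 were below the filter on both arrays, at 83.1, 111 and 67.9 in Runx2-/- and 57.8, 130 and 101 in wild-type pDCs. The fourth, Cd79b, was bright on both. Over the whole list of 14 measured B cell markers, 0 were 2-fold apart (1.08% of all named genes) and 10 were below 0 (56.7% of all named genes). Their summed intensity was 12895 in Runx2-/- and 12391 in wild-type pDCs. Most of both sums came from Cd37, Tnfrsf13c and Cd79b, so the sums say little about the dimmer markers. Of the 14, 7 were past the filter, among them Cd37 at 6371 in Runx2-/- and 6861 in wild-type pDCs and the BAFF receptor gene Tnfrsf13c, which differed by 0.60. The part of B cell RNA in the values of the 9 genes was not tested.

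Of the markers of the labelled cell type, 12 of 12 pDC genes were past the filter and 0 of them were 2-fold apart (median -0.046). Among all named genes 1.08% were 2-fold apart in either direction, and 1.96% among those past the filter. The list of neutrophil and precursor genes differed most: 8 of 8 were at least 2-fold lower. Its summed intensity was 1833 in Runx2-/- and 16773 in wild-type pDCs. Of 5 measured erythroid markers 3 were at least 2-fold lower, with sums of 551 and 1712 in Runx2-/- and wild-type pDCs, and of 6 monocyte markers 2 were, Ccr2 and Lyz2. The monocyte and macrophage genes C1qb and Csf1r were on the other side, at 456 and 233 in Runx2-/- and 246 and 150 in wild-type pDCs (differences 0.89 and 0.64). Of 4 T cell and 5 NK cell markers 0 were 2-fold apart, with medians of -0.12 and 0.12. In a sorted bulk sample, fewer cells of a type and less RNA per cell cannot be told apart. Whether RNA of these other cells had a part in the values of Blk, Cd72 or Syk, which were also lower, was not tested.

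**Figure D5:**
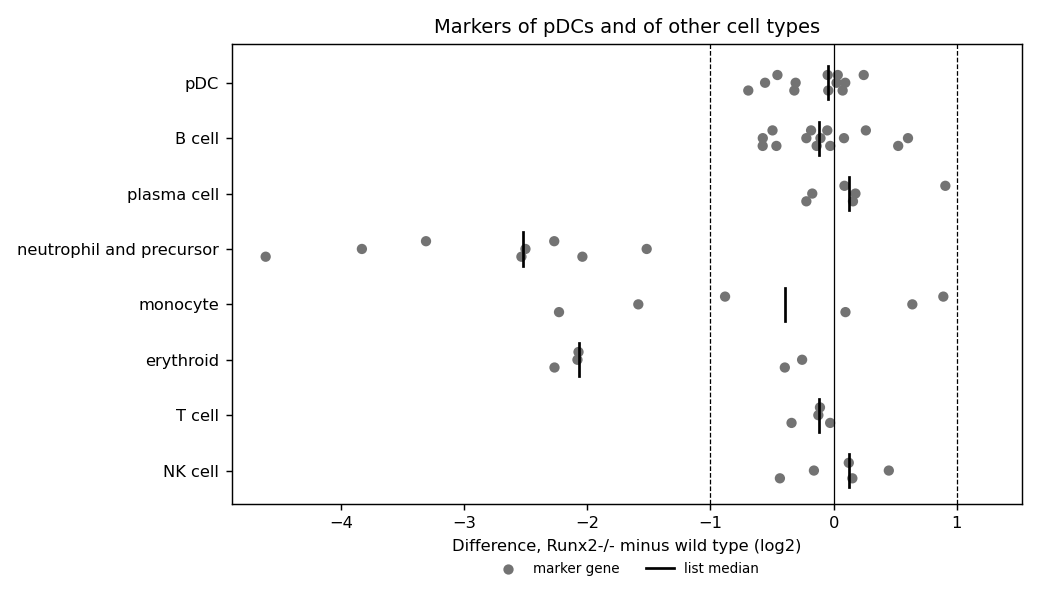
Difference in log2 units, Runx2-/- minus wild type, of marker genes of pDCs and of 7 other cell types, 1 point per gene, with dashed lines at 2-fold and a black bar at each list's median. The pDC and B cell points lie between the dashed lines, and all 8 neutrophil and precursor points lie below the lower 2-fold line.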

How the data were processed

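RNA of each genotype was hybridised to 1 Affymetrix Mouse Gene 1.0 ST array. The authors deposited intensities on a linear scale, between 15.3 and 20364, made with RMA per the submitters' processing notes (background correction, normalisation and summary over probes). The sources used here name no software version or annotation, and RMA shrinks differences of dim probe sets. The number of arrays limits the precision, and no test across samples is possible.

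Intensities were taken to log2 and wild type was subtracted from Runx2-/-; a fold is the ratio of intensities. Of 35556 probe sets, 21789 have 1 gene symbol in the platform annotation, 1621 several and 12146 none; 21698 of the first kind matched RefSeq by gene identifier. A gene with several probe sets was read from the brightest. Genes and lists were chosen with earlier results of these data known. Named were the 9 genes and, per pathway list, genes at least 2-fold apart or else the 3 furthest from 0 in each direction. Relatives and cell type markers were named in part only, and their other genes enter through counts, medians and sums. The steps were tested on simulated data. Alternatives were equal medians, quantile normalisation, loess (span 0.3), averaged probe sets, a 1.5-fold threshold, the filter and 50 units added. Tools were pandas 2.3.3, numpy 2.4.6, statsmodels 0.14.6, and matplotlib 3.10.9 under Python 3.11.15.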

Additional observations from a re-analysis of the deposited data

How the results depend on the processing

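The 9 differences kept their sign under equal column medians, quantile normalisation, the loess correction and 50 added intensity units. None moved by over 0.061 under the scaling settings, that is, without the added units. Averaging probe sets could not change them, because each of the 9 genes has 1 probe set. Adding 50 units changed the median absolute difference of the 9 genes to 1.33, against 1.497 as reported, with Bank1 at 1.99, Fcmr at 1.88, Cd22 at 1.39 and Blk at -1.33. The lower value of each of these genes was just below or not far above the filter level of its array. The count of 5 genes at least 2-fold apart stayed at 5 under the scaling settings and was 6 at a 1.5-fold threshold, where Fcrla joined. Over the 74 other pathway genes, the count was 3 at 2-fold and 8 at 1.5-fold, the cause being the threshold itself. The median of the list of pDC receptors and adaptor chains, -0.0077, became 0.0020, 0.0079 and 0.020 under equal medians, quantile normalisation and loess. That of the NF-kappaB, Ras and NFAT arms changed sign as given above. No paired analysis was possible because each genotype has 1 array. Neither these settings nor the filter replaces replicates, and signal over background could not be set per gene.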

Other observations

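B lineage transcription factor genes were within 2-fold, with 1 exception in 14, beside 1.08% of all named genes 2-fold apart in either direction. Ikzf3 (Aiolos), a zinc finger factor of lymphocytes, measured 793 in Runx2-/- and 166 in wild-type pDCs, 4.77-fold higher with the wild-type value below the filter. Bcl6, a repressor of germinal centre B cells, measured 520.1 in Runx2-/- and 298 in wild-type pDCs (difference 0.80), and Pou2f2 (Oct-2) differed by 0.42. Spib and Spi1, the genes of the Ets factors Spi-B and PU.1, differed by -0.69 and -0.49, with Spib at 3195 in Runx2-/- and 5165 in wild-type pDCs. Bcl11a, Bach2 and Pou2af1 differed by -0.087, 0.037 and -0.028. The list's median was -0.15, with 9 of 14 genes below 0, as were 56.7% of all named genes. Bcl6, Pou2f2, Spi1, Bcl11a, Bach2 and Pou2af1 were picked after their values were seen.

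Of 6 plasma cell markers, 0 were 2-fold apart (1.08% of all named genes) and the median was 0.12. Sdc1, which encodes CD138, measured 1064 in Runx2-/- and 568 in wild-type pDCs (difference 0.91), Jchain, the joining chain of IgM and IgA, differed by 0.18 and Xbp1, a factor of the secretory pathway, by -0.22. Tnfrsf13c, the BAFF receptor gene, measured 2617 in Runx2-/- and 1723 in wild-type pDCs, a difference of 0.60. Tnfrsf17 and Prdm1 were below the filter on both arrays.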
